A study of Mus musculus with 8 samples.

Results

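Cytosolic ribosomal proteins are the protein subunits of the ribosomes that translate the messenger RNAs of the nucleus. They were followed here in bone marrow B cells of mice with and without ovaries. Genes were taken by name: every mouse symbol that begins with Rpl or Rps followed by a digit, and Rplp0, Rplp1, Rplp2 and Rpsa, without pseudogenes and without the Rps6k kinases. This gave 93 genes of the 54532 in the count table. Of these, 46 encode core proteins of the large (60S) subunit and 31 core proteins of the small (40S) subunit, 9 are paralogs of a core gene and 6 are further copies with a ribosomal protein name. The last, Rps19bp1, shares the name only and encodes a protein that binds Rps19.

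RNA sequencing was done on 3 B cell libraries of ovariectomized mice (OVX) and 3 of sham-operated mice (Sham). OVX, the surgical removal of both ovaries, serves in this study as a mouse model of the menopause and of the bone loss that follows lack of estrogen, and sham-operated mice undergo surgery without loss of the ovaries. The B cells were sorted with magnetic beads, and no genetic change is stated for these libraries. The labels give neither strain nor age for them, and do not say whether each library came from a separate mouse, so p-values measure only the spread between these libraries. Libraries held between 23838775 and 33136701 counts in all. All 12 general B cell markers were detected in every library, with 7849 to 63182 counts each.

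A ribosome holds 1 copy of almost every one of its proteins, and the genes for them are active in every cell that grows or makes protein. Their messenger RNAs begin with a C followed by a stretch of C and T (in RNA, U) letters, the terminal oligopyrimidine motif. Through this motif the mTOR pathway and the RNA-binding protein Larp1 govern how strongly these messages are translated and how long they last. Developing B cells divide in bursts and plasma cells secrete antibody, and both need many ribosomes. Inherited loss of 1 copy of such genes as Rps19 or Rpl35a causes Diamond-Blackfan anaemia, a failure of red cell formation in the marrow.

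The start sites of 5 core genes are printed here as examples. These genes lie on both sides of 0 in the differences given further on. Each sequence runs 5′ to 3′ on the gene's own strand from 80 bases before to 20 bases after the annotated start of the transcript. Capitals mark the longest unbroken run of C and T within 30 bases before and 20 bases after the start. All come from RefSeq on GRCm38.p6. The windows are chr17:33824543-33824642 on the minus strand for Rps28, chrX:37085203-37085302 on the minus strand for Rpl39, chr11:114668500-114668599 on the plus strand for Rpl38, chr17:24719983-24720082 on the plus strand for Rps2 and chr4:86857348-86857447 on the minus strand for Rps6.
Rps28: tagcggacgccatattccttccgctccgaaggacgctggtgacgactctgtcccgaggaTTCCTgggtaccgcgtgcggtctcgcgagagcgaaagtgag
Rpl39: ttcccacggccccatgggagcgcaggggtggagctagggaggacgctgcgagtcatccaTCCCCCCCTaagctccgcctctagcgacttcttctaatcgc
Rpl38: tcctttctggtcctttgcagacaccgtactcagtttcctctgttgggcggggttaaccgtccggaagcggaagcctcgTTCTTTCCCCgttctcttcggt
Rps2: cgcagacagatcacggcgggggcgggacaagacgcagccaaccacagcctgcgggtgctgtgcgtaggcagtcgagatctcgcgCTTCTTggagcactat
Rps6: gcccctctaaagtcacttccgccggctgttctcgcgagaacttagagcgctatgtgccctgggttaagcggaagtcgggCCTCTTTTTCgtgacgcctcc
The run was 5 bases in Rps28, 9 in Rpl39, 10 in Rpl38, 6 in Rps2 and 10 in Rps6. It covered the annotated start base in Rpl38 and Rps6, but lay before that base in Rps28 and Rpl39 and after it in Rps2. Over the core genes, 67 windows of 57 genes were in the RefSeq table. The median of the longest run was 7 bases, against 5 bases over all 32851 windows of the table. A run of 8 or more bases was found in 46.3% of the core windows and in 20.2% of all windows. A run of 5 or more bases that covered the annotated start base itself was found in 29.9% and 10.1%. The letters CCGGAA, part of the site that ETS family factors such as GABP bind, stood on either strand of the 300-base window (250 bases before and 50 after the start) in 49.3% of the core windows and 14.9% of all windows. These are matches of letters in a window, not sites shown to be used.

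In order of replicate number, the members took 5.37%, 5.13% and 4.76% of all counts in the Sham libraries. They took 5.03%, 5.42% and 5.41% in the OVX libraries. The groups overlapped: the lowest library was Sham replicate 3 and the highest were OVX replicates 2 and 3, but Sham replicate 1 lay close to these and OVX replicate 1 lay below Sham replicate 2. The OVX mean was 5.28% ± 0.222 and the Sham mean 5.08% ± 0.311 (SD, n = 3 per group). The difference of 0.20 percentage points was smaller than the SD of either group. It became 0.035 when Sham replicate 3 was left out, 0.33 for OVX replicate 1, 0.34 for Sham replicate 1, 0.13 for OVX replicate 2 and 0.14 for OVX replicate 3. The 60S and 40S genes moved together, with 2.95% ± 0.111 (OVX) and 2.84% ± 0.162 (Sham) for 60S, and 2.31% ± 0.110 and 2.21% ± 0.147 for 40S, each as mean ± SD of 3 libraries. The 289 pseudogenes named after ribosomal proteins took 0.0134% in OVX and 0.0131% in Sham.

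No ribosomal protein gene was called different between OVX and Sham. A call needed an adjusted p under 0.05 (edgeR's quasi-likelihood test, Benjamini-Hochberg adjustment over all 15305 genes tested) and a fold change of at least 1.6, and 0% of all genes met it. Of the 93 members, 89 had enough counts to be tested, and the lowest adjusted p among them was 0.811 with edgeR. The count was also 0 with DESeq2 (lowest adjusted p = 0.997) and limma-voom (lowest adjusted p = 0.787). At an unadjusted p under 0.05 from edgeR, 4 members were higher in OVX, namely Rps28, Rpl39, Rps29 and Rpl38, where 1.47% of all genes were. At the same limit, 1 member was lower, Rpl36al, where 2.28% of all genes were.

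Most members had a small positive log2 fold change (OVX against Sham). Of the 89 tested, 77 were on the higher side and 12 on the lower side, or 86.5% higher, whereas 48.2% of all genes tested were on the higher side, but with scaling on 12 general B cell genes only 38 were on the higher side. The median log2 fold change was 0.08 over the 77 core genes, with 0.08 over 60S and 0.09 over 40S genes, against -0.0081 over all genes tested. Core values ran from -0.31 (Rpl24) to 0.38 (Rps28), and 69 of 77 were positive. Because the genes move together from library to library, this count is a description of 6 libraries rather than 77 separate measurements. The core median was 0.02 without Sham replicate 3, with 57 of 89 members on the higher side, 0.05 without OVX replicate 2, 0.13 without OVX replicate 1 and 0.12 without Sham replicate 1. With the scaling on B cell genes it was -0.016 and the median of all genes was -0.10, so the sign of a log2 fold change smaller than about 0.10 in what follows depends on the scaling.

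**Figure D1:**
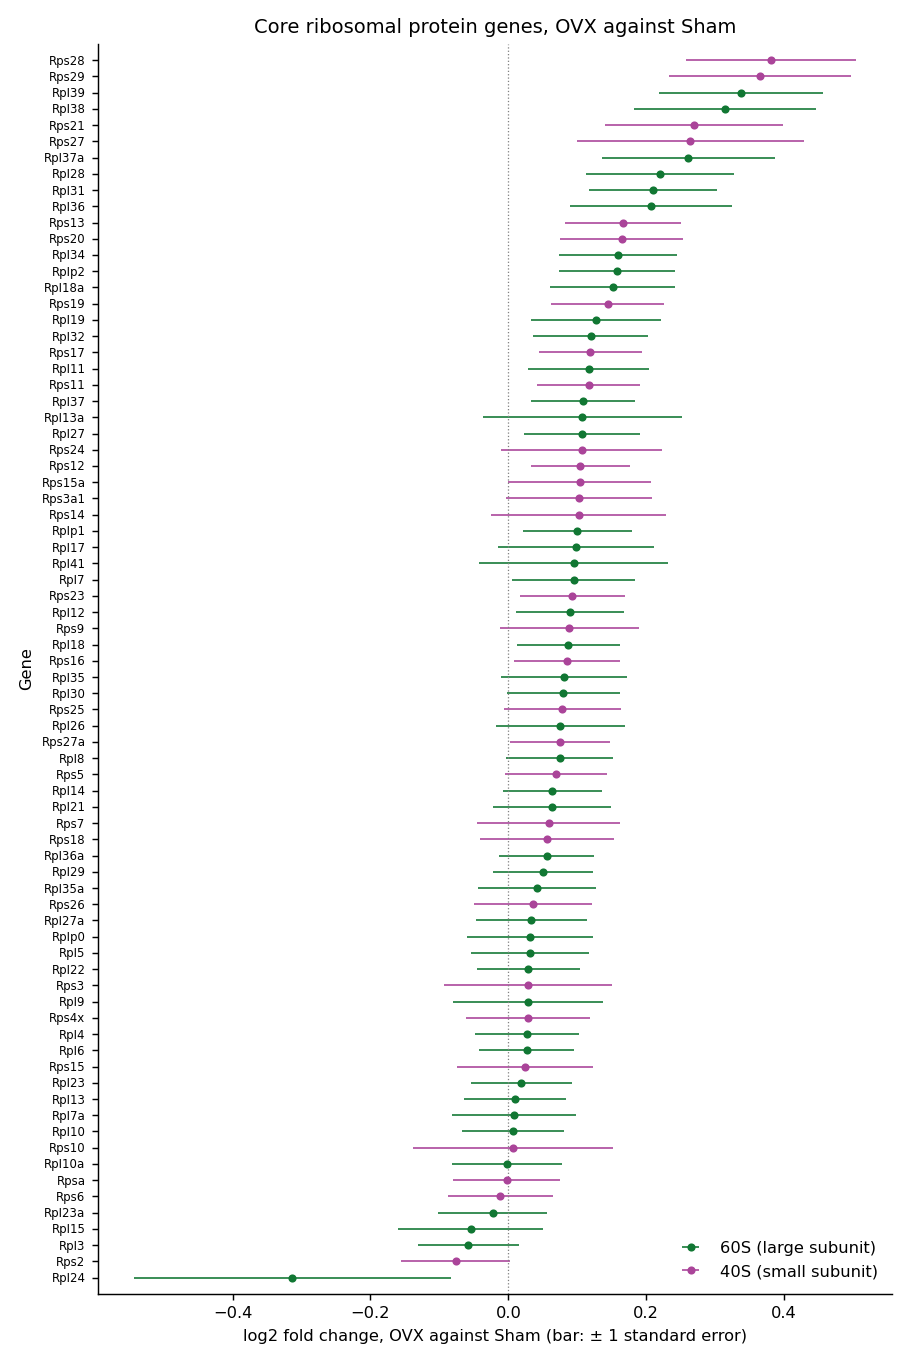
Log2 fold change of OVX against Sham for 76 of the 77 core ribosomal protein genes (points, coloured by subunit, bars of 1 standard error), ordered by value from Rpl24 at -0.31 to Rps28 at 0.38. With TMM scaling 69 of all 77 core genes are positive, whereas scaling on 12 general B cell genes puts the median at -0.016.

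The median spread among libraries was smaller than over all genes, as it was for other genes of translation. The median SD of log2 CPM within groups (CPM, a count scaled to a common library total with edgeR's TMM factors) was 0.0966 over the core genes, 0.0814 over 34 translation factors, 0.0762 over 36 ribosome assembly factors and 0.187 over all genes tested. The median range over the 6 libraries was 0.253, 0.229, 0.242 and 0.513 log2 units. The genes tested also include genes with low counts, where sampling adds spread, and the lists were not matched for count level. Each core gene was then set against its own mean over the 6 libraries. The median deviation on the log2 scale was 0.05 in Sham replicate 1, -0.04 in Sham replicate 2 and -0.13 in Sham replicate 3. It was -0.04 in OVX replicate 1, 0.10 in OVX replicate 2 and 0.07 in OVX replicate 3. Most core genes thus shifted together, up in OVX replicates 2 and 3 and Sham replicate 1, and down in the other libraries. Those above their own mean numbered 73 in OVX replicate 2, 63 in OVX replicate 3 and 55 in Sham replicate 1. They numbered 22 in Sham replicate 2 and 12 in OVX replicate 1. Rps28, Rps29, Rpl39 and Rpl38 were below their own means in Sham replicate 1. Sham replicate 3 was the lowest library for 65 of the 77 genes, with 1 gene above its own mean, Rps2. OVX replicate 2 was the highest library for 38 genes and Sham replicate 1 for 24.

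**Figure D2:**
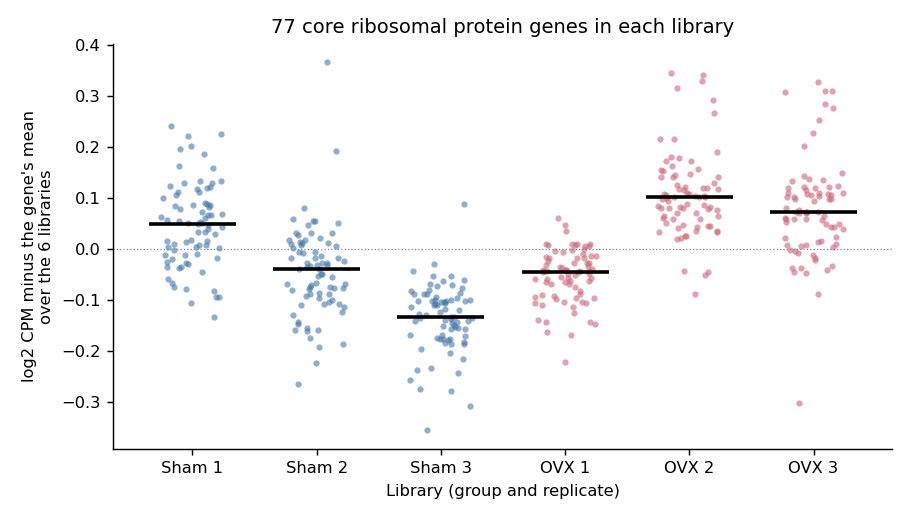
Log2 CPM of each of the 77 core ribosomal protein genes minus its mean over the 6 libraries (points), by library, with the median as a black bar. The medians run from -0.13 in Sham replicate 3 to 0.10 in OVX replicate 2, and libraries of the same group lie on both sides of 0.

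Among the marker lists for other cells, the share of counts on neutrophil markers moved with this order. The 15 neutrophil markers, all detected in every library, together took 0.254%, 0.349% and 0.950% of counts in the Sham libraries by replicate number. They took 0.411% in OVX replicate 1, 0.111% in OVX replicate 2 and 0.12% in OVX replicate 3. The order of the 6 libraries was the reverse of that of the ribosomal protein share. The 12 general B cell markers together took 1.15%, 1.09% and 1.07% of counts in the Sham libraries by replicate number. They took 1.08%, 1.24% and 1.17% in the OVX libraries, and their order of libraries was the same as that of the ribosomal protein share. The 9 markers of pro-B and pre-B cells took 0.160% to 0.290% in Sham and 0.235% to 0.309% in OVX, with Sham replicates 2 and 3 lowest, and the 8 markers of mature B cells 0.143% to 0.329% and 0.151% to 0.187%. The 11 markers of monocytes and macrophages together took 0.127% to 0.249% in Sham and 0.0709% to 0.183% in OVX. Sham replicate 2 was highest and OVX replicate 3 next, so this share did not follow the order. Single genes differed: Sham replicate 2 was the highest library for 7 of the 11 and Sham replicate 3 for 3. Lyz2 had 394, 568 and 1071 CPM in Sham and 577, 182 and 322 CPM in OVX by replicate number. Its order was that of the neutrophil share. The 9 erythroid markers took 0.0278% to 0.0549% in Sham and 0.0188% to 0.0340% in OVX, and the 8 markers of T and NK cells 0.00211% to 0.00457% and 0.00146% to 0.00387%. In both of these lists, too, the order of the libraries by share was another one. The median deviation of the T and NK markers on the log2 scale was -0.38, 0.68 and 1.43 in Sham by replicate number. It was 0.23, -1.19 and -0.81 in OVX. This order differed from that of the neutrophil share only in the places of Sham replicate 2 and OVX replicate 1. No marker of these lists was at 0 in every library. The part of these cells in the ribosomal protein values was not tested. In bulk RNA, fewer cells of a type and less RNA per cell cannot be told apart.

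The 4 genes with the lowest p on the higher side encode some of the smallest proteins of the ribosome. Rps28, a protein of the head of the small subunit, had 184, 183 and 167 CPM in Sham and 188, 257 and 251 CPM in OVX, listed as all levels here by replicate number. OVX replicates 2 and 3 were high and OVX replicate 1 lay just above the Sham libraries, so the groups did not overlap. Means were 232 ± 38.0 CPM for OVX and 178 ± 9.80 CPM for Sham (SD, n = 3 per group), and the log2 fold change was 0.38 (standard error 0.12, adjusted p = 0.811 with edgeR). The two-sided exact permutation test gave p = 0.1, the smallest that 3 libraries against 3 allow.

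Rps29, a zinc-binding protein of the small subunit, had 276, 254 and 239 CPM in Sham and 265, 367 and 358 CPM in OVX. Rpl39, which lines the tunnel through which the new protein leaves the ribosome, had 210, 196 and 186 CPM in Sham and 205, 275 and 267 CPM in OVX. Rpl38, known from mice with skeletal defects for its role in the translation of Hox messages, had 175, 172 and 159 CPM in Sham and 166, 235 and 228 CPM in OVX. In all 3 genes OVX replicates 2 and 3 stood above every other library while OVX replicate 1 lay within the Sham range, so the groups overlapped. The log2 fold changes were 0.36 (standard error 0.13) for Rps29, 0.34 (0.12) for Rpl39 and 0.31 (0.13) for Rpl38, each with an adjusted p of 0.811 (edgeR's quasi-likelihood test). With OVX replicate 2, OVX replicate 3 or Sham replicate 3 left out, 0 members were on the higher side at an unadjusted p under 0.05. There were 10 when OVX replicate 1 or Sham replicate 1 was left out, and 2 when Sham replicate 2 was.

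**Figure D3:**
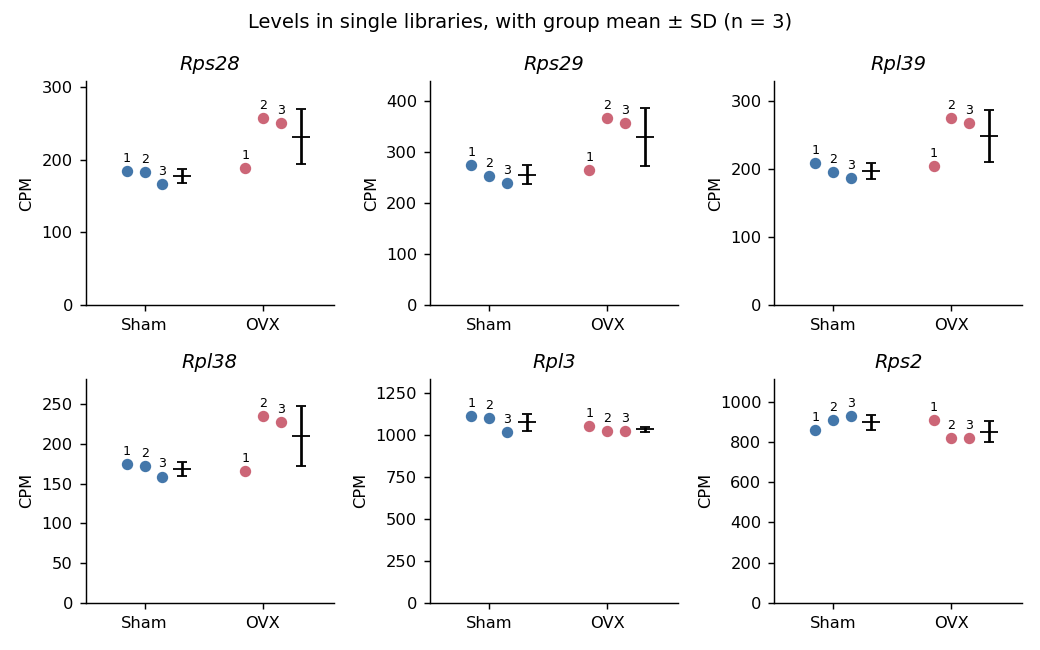
CPM of Rps28, Rps29, Rpl39, Rpl38, Rpl3 and Rps2 in each library (points numbered by replicate, Sham and OVX side by side, with the group mean ± SD, n = 3). In the first 4 genes OVX replicates 2 and 3 stand above all other libraries, which is not seen in Rpl3 and Rps2.

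The names of ribosomal proteins run roughly from larger to smaller proteins, since the proteins were numbered by their place on a gel. Along these numbers, the median log2 fold change was 0.03 over the 20 core genes numbered 1 to 10, 0.10 over the 21 numbered 11 to 20, 0.08 over the 20 numbered 21 to 30 and 0.14 over the 12 numbered 31 to 41. All 12 of the last group were on the higher side, against 16 of the first 20. The number is only a rough guide to size. Rpl41, the smallest ribosomal protein, had 831, 649 and 638 CPM in Sham and 647, 817 and 797 CPM in OVX, with Sham replicate 1 the highest library, and the log2 fold change was 0.09 (standard error 0.14). OVX replicates 2 and 3 were the 2 highest libraries for 37 of the 77 core genes (48.1%) and for 9.62% of all genes tested. Among core genes numbered 1 to 10 this held for 1 of 20, and among those numbered 31 to 41 for 8 of 12.

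**Figure D4:**
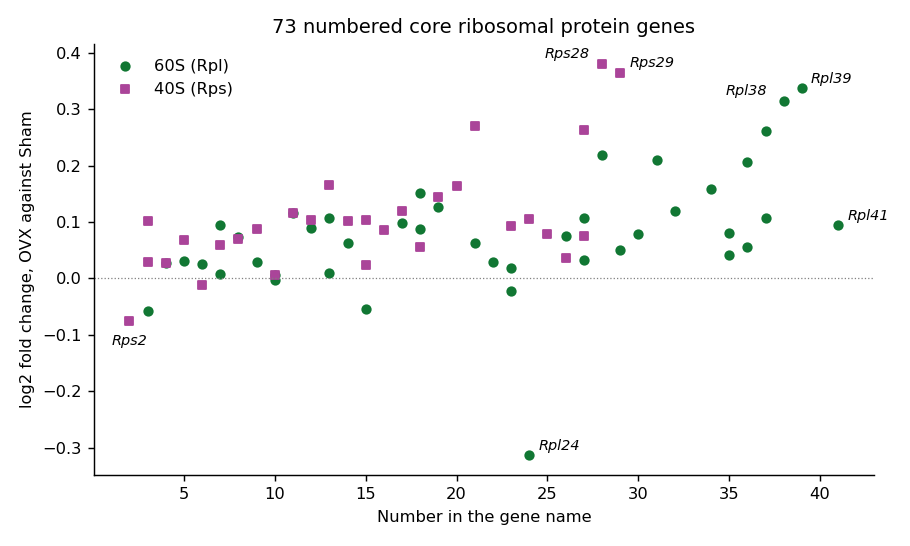
Log2 fold change of OVX against Sham for the 73 numbered core genes, plotted against the number in the gene name (circles for 60S, squares for 40S). Rps28, Rps29, Rpl38 and Rpl39 stand at the top with values of 0.31 to 0.38, Rpl41 is at 0.09, and Rpl24 stands alone at -0.31.

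Small proteins outside the cytosolic ribosome had the same 3 highest libraries, but not the same lowest one. Their median deviation was 0.14 in OVX replicate 2, 0.12 in OVX replicate 3 and 0.09 in Sham replicate 1, and Sham replicate 2 was lowest, at -0.23. A list of 48 genes for small proteins (respiratory chain subunits, spliceosome subunits and others) was drawn up by known protein size after the ribosomal values and the higher level of Atp5k in OVX had been seen, so its counts are a description only. Of the 47 tested, 40 were on the higher side. Their median log2 fold change was 0.14, and 3 were higher at an unadjusted p under 0.05 from edgeR (Snrpg, Cox6c and Atp5k), against 1.47% of all genes. Snrpg, a subunit of the spliceosome, had 63.7, 52.4 and 60.3 CPM in Sham and 69.4, 84.2 and 80.8 CPM in OVX. For 22 of the 47 genes (46.8%) OVX replicates 2 and 3 were the 2 highest libraries.

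Of the 8 core genes on the lower side, Rpl24 was lowest, at -0.31, and Rps2 and Rpl3 came next. Rps2, which lies near the entry of the messenger RNA, had 858, 908 and 929 CPM in Sham and 912, 822 and 822 CPM in OVX, a log2 fold change of -0.08 (standard error 0.08). Rpl3, which reaches toward the centre where amino acids are joined, had 1110, 1096 and 1014 CPM in Sham and 1049, 1021 and 1022 CPM in OVX, a log2 fold change of -0.06 (0.07). Rps2 ran against the family, with Sham replicate 3 its highest library and OVX replicates 2 and 3 its lowest, and its groups overlapped. Rps6, the ribosomal protein that S6 kinases phosphorylate when mTOR is active, had 917, 872 and 813 CPM in Sham and 856, 884 and 842 CPM in OVX (log2 fold change -0.012, standard error 0.08). Rpsa, known also as a receptor of laminin, had 1567, 1540 and 1417 CPM in Sham and 1515, 1529 and 1471 CPM in OVX (-0.0025, standard error 0.08). In Rps6 and Rpsa the OVX libraries lay within the Sham range.

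Rpl4, which lines the exit tunnel and had the most counts of all members, had 1777, 1681 and 1630 CPM in Sham and 1720, 1762 and 1702 CPM in OVX (log2 fold change 0.03, standard error 0.08). Rps3, a protein of the small subunit with a further role in DNA repair, had 1493, 1183 and 1130 CPM in Sham and 1201, 1340 and 1342 CPM in OVX (0.03, standard error 0.12). The spread in Rps3 came mostly from Sham replicate 1, the highest library.

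The stalk of the large subunit, which recruits the elongation factors, is built from Rplp0, Rplp1 and Rplp2. Rplp0 had 1794, 1515 and 1564 CPM in Sham and 1639, 1717 and 1626 CPM in OVX, and its log2 fold change was 0.03 (standard error 0.09). The log2 fold change was 0.10 (0.08) for Rplp1 and 0.16 (0.08) for Rplp2, and the groups overlapped in all 3. Rpl5 and Rpl11 carry the 5S RNA into the large subunit and, when left over, bind the p53 inhibitor Mdm2. Their log2 fold changes were 0.03 (0.09) and 0.12 (0.09).

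Among the 18 genes tied to Diamond-Blackfan anaemia, 17 were on the higher side, and their median log2 fold change was 0.10, close to the 0.08 of the core genes. Rps19, the gene most often mutated in this disease, had 587, 554 and 531 CPM in Sham and 569, 648 and 631 CPM in OVX (log2 fold change 0.14, standard error 0.08). Rpl35a had 465, 418 and 402 CPM in Sham and 426, 474 and 423 CPM in OVX (0.04, standard error 0.09). The groups overlapped in both genes. The list includes Rps28 and Rps29, described above.

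Only a few members separated the groups. In 4 of the 89 members all OVX libraries were above all Sham libraries, as in 4.33% of all genes, and in 1 they were all below, as in 4.12% of all genes. The former include Rps28, Rps12 and Rpl3l, and the latter was Rpl36al. Rps12, a core protein of the small subunit, had 591, 630 and 591 CPM in Sham and 630, 681 and 637 CPM in OVX (log2 fold change 0.10, standard error 0.07). The gap between the groups was narrow in Rps12, with Sham replicate 2 next to OVX replicate 1.

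The paralogs are genes that can stand in for a core gene, often in one tissue. Rpl3l, the counterpart of Rpl3 in heart and skeletal muscle, had 4.39, 3.10 and 4.14 CPM in Sham and 6.35, 4.66 and 5.36 CPM in OVX (log2 fold change 0.49, standard error 0.22, adjusted p = 0.811 with edgeR). Rpl36al, a near-identical copy of Rpl36a, had 1.90, 3.06 and 3.46 CPM in Sham and 1.63, 1.80 and 1.82 CPM in OVX (-0.68, standard error 0.28, adjusted p = 0.811 with edgeR). The Rpl36al levels in OVX were close to Sham replicate 1 and below Sham replicates 2 and 3. Its unadjusted p was under 0.05 with edgeR but not with DESeq2 or limma-voom, and it was the only member with a log2 fold change under -0.5. For its core counterpart Rpl36a the log2 fold change was 0.06 (standard error 0.07).

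Rpl22 and Rpl22l1 form the pair best known in lymphocytes, since loss of Rpl22 impairs lymphocyte development and Rpl22 restrains Rpl22l1. Rpl22 had 280, 276 and 257 CPM in Sham and 258, 278 and 293 CPM in OVX, and Rpl22l1 had 38.7, 35.6 and 35.4 CPM in Sham and 35.8, 38.3 and 39.5 CPM in OVX. The log2 fold changes were 0.03 (standard error 0.07) and 0.05 (0.08), and the groups overlapped in both. Rps27 and the p53 target Rps27l had log2 fold changes of 0.26 (0.16) and 0.19 (0.10). Rps27 had 801, 785 and 625 CPM in Sham and 686, 979 and 990 CPM in OVX, the same picture of high OVX replicates 2 and 3 as in Rps28, and Rps27l had 61.8 CPM at most in Sham and 67.5 CPM at most in OVX, with overlap. Rpl7 and Rpl7l1, an assembly factor that resembles Rpl7, had 0.09 (0.09) and 0.13 (0.11).

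The log2 fold change was 0.03 (standard error 0.09) for Rps4x and 0.32 (0.48) for its paralog Rps4l. Rps4l had 7.05, 2.92 and 7.12 CPM in Sham and 5.50, 11.7 and 4.03 CPM in OVX, so 1 high and 1 low library set its value. It was -0.26 without OVX replicate 2 and -0.0068 without Sham replicate 2. Rpl10, one of the last proteins to join the large subunit, had 0.0070 (0.07), and no count of its testis paralog Rpl10l was found in any library. Rpl39l, also a testis paralog, had 17, 0 and 2 counts in Sham and 3, 4 and 2 counts in OVX and was not tested. Of the further copies, Rps12l1 had no count, Rpl32l had 1 to 9 counts per library and was not tested, and the 4 tested had log2 fold changes from -0.31 to 0.32, with 1 on the higher side. Where the count was 0 in a library, up to 3 counts cannot be told from none, and this covers counting error only. Reads of these copies can be shared with the core gene, and how the authors assigned them is not given in the sources used here, so the values of near-identical copies are uncertain.

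The counts of 3 core genes were far lower than those of the others. Rpl24 had 56 to 90 counts per library, Rps10 228 to 345 and Rpl13a 1009 to 1641, whereas the other 74 core genes had between 3955 and 56240. On GRCm38.p6 in the RefSeq table, each of the 3 overlaps other genes. Rpl24 (chr16:55966275-55971437) overlaps Zbtb11, Rps10 (chr17:27630415-27635244) overlaps the gene Gm15420, and Rpl13a (chr7:45125563-45128745) holds small nucleolar RNAs (Snord32a, Snord33, Snord34 and Snord35a) and the microRNA gene Mir5121 within it. Overlap of the other 74 core genes with other genes is not given here, so it is not known whether overlap sets these 3 apart. The part of this overlap in the low counts was not tested. The log2 fold change was -0.31 (standard error 0.23) for Rpl24, 0.0062 (0.14) for Rps10 and 0.11 (0.14) for Rpl13a, which in interferon-treated cells also leaves the ribosome to block translation of other messages.

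Cytosolic ribosomal proteins with other names followed the core genes. Fau, which encodes a ubiquitin-like protein fused to Rps30, had 838, 761 and 702 CPM in Sham and 761, 884 and 862 CPM in OVX (log2 fold change 0.12, standard error 0.10). For Rack1, a signalling scaffold on the small subunit, it was 0.05 (0.11). The groups overlapped in both.

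Genes that serve the cytosolic ribosome did not all share its small shift. Of the 34 translation factors, 21 were on the higher and 13 on the lower side (median log2 fold change 0.02, none at an unadjusted p under 0.05 with edgeR). Those with the lowest p were the initiation factors Eif3f at 0.15 (standard error 0.08), Eif4a2 at -0.18 (0.11) and Eif3k at 0.13 (0.09). Of the 77 mitochondrial ribosomal proteins tested out of 78, which build a separate ribosome inside mitochondria, 47 were higher and 30 lower (median 0.03). Mrpl30, Mrpl4 and Mrpl48 had the lowest p of these, with 0.16 (0.07), 0.15 (0.07) and 0.21 (0.11). In the list of mTOR pathway genes and regulators of these messages, 13 of 17 were higher (median 0.07). Rptor, the mTOR complex scaffold, had 0.16 (0.08), Larp1 -0.15 (0.08), and Myc, which drives transcription of ribosomal genes, -0.30 (0.16). None of these lists held a called gene.

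Ribosome assembly factors lay on the lower side under every scaling tried. Of the 36, 27 were lower and 9 higher. Their log2 fold changes ran from -0.29 to 0.17 around a median of -0.08. Of all genes tested, 7934 of 15305 were lower. In 7 of the 36 every OVX library lay below every Sham library, where 4.12% of all genes did, and 3 were lower at an unadjusted p under 0.05 with edgeR, where 2.28% of all genes were. Tsr1, which is needed to mature the small subunit, had 30.4, 31.7 and 33.8 CPM in Sham and 28.1, 27.2 and 25.7 CPM in OVX (-0.24, standard error 0.09, adjusted p = 0.811 with edgeR). Gnl3 (nucleostemin) had 64.3, 72.0 and 63.1 CPM in Sham and 58.6, 54.5 and 58.4 CPM in OVX (-0.22, standard error 0.08), and Nolc1, a nucleolar phosphoprotein, 115, 113 and 116 CPM in Sham and 107, 105 and 99.8 CPM in OVX (-0.14, standard error 0.06). All 3 had non-overlapping groups with little spread, but none was called. The median deviation of these 36 genes was 0.03, 0.05 and 0.04 in the Sham libraries and -0.0080, -0.014 and -0.09 in the OVX libraries, so the order of libraries was not that of the core ribosomal proteins. The difference between these 2 lists was not tested.

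**Figure D5:**
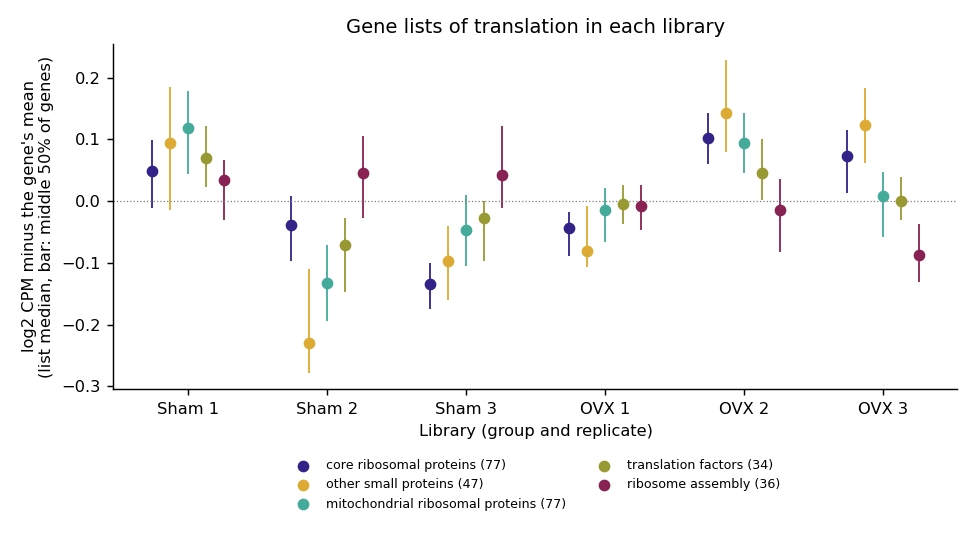
Median deviation in log2 CPM from each gene's mean over the 6 libraries (points; bars span the middle 50% of genes), by library, for 77 core ribosomal proteins, 47 other small proteins, 77 mitochondrial ribosomal proteins, 34 translation factors and 36 ribosome assembly factors. The small proteins are high in OVX replicates 2 and 3 as the core genes are but lowest in Sham replicate 2, while the assembly factors lie above 0 in all Sham libraries and below 0 in all OVX libraries.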

How the data were processed

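RNA of bone marrow B cells was measured in 3 OVX and 3 Sham libraries, grouped by the labels. A ChIP library and its input were not used here. The values the authors deposited are counts of reads by Ensembl gene, neither normalized nor based on molecular identifiers. The submitters' processing notes name CASAVA, Bowtie 0.12.2 and mm10 without a role. The counting tool, annotation and strand setting are not given in the sources used here, and the extraction is described differently in the labels and in the study's methods. Symbols were matched to 54409 of 54532 identifiers.

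The groups were compared with edgeR 4.0.16 in R 4.3.3 (filterByExpr by group, TMM factors, quasi-likelihood test, Benjamini-Hochberg adjustment over 15305 genes). The standard error is the size of the log2 fold change divided by the square root of F, and log2 CPM used a prior count of 2. The script was tested on simulated data. Every pair of libraries differed by more than sampling noise. Levels were not compared between genes, since transcript lengths were not used here.

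The members and lists were chosen with earlier results of these data known. Named genes are members with a set role, the 5 with the lowest p, the 5 with the largest change, the one with the most counts, members with separated groups and up to 3 of each list, and some genes that this rule covers are not reported here. Rps2, Rpl24 and Rps10 were added after their values were seen. The list of small proteins was added after the ribosomal values and the direction of Atp5k were known. A search for runs near the start was added, after the windows were seen, to the search over the start base. Alternatives were DESeq2 1.42.0, limma-voom (limma 3.58.1), other scalings and filters (library size, upper quartile, DESeq2's size factors, scaling without the ribosomal protein genes or on 12 B cell genes, no filter, at least 10 counts on average), calls without a fold limit, the replicate number as a block and each library left out. Leaving out Sham replicate 2 with OVX replicate 3 was chosen after seeing the data.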

Additional observations from a re-analysis of the deposited data

How the results depend on the processing

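No member was called under any of the alternatives, and the lowest adjusted p of a member with 1 library left out was 0.273 (edgeR, without Sham replicate 1). The core median log2 fold change was positive in every alternative except scaling on 12 B cell genes (-0.016, with 38 members higher in OVX). That scaling also gave a median of -0.027 for the mTOR pathway list, -0.17 for the assembly factors and -0.076 for the translation factors. Leaving out 1 library at a time, the core median ran from 0.02 to 0.13, the number of members higher from 57 to 82 and the difference in share from 0.035 to 0.34 percentage points. The number of members higher at an unadjusted p under 0.05 ran from 0 to 10 and lower from 0 to 1. It was 7 higher with no filter on low counts, and 0 higher and 0 lower without Sham replicate 2 and OVX replicate 3 together. DESeq2 and limma-voom each gave 0 lower. The cause of these changes was not tested.

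With the replicate block, 1 member was higher and 0 lower at an unadjusted p under 0.05, and none was called. Deviations of same-numbered libraries from their group means correlated at -0.410, -0.189 and -0.279 over genes, and no library correlated best with its own number. Since deviations within a group cancel out by construction, these correlations depend on each other. They cannot show whether same-numbered libraries were handled together.

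Of 578 values of 34 named members under the alternatives, 529 kept direction and side of the threshold, 49 changed sign and 0 passed the threshold. On the log2 scale, the sign changed with scaling on 12 B cell genes to -0.089 for Rpl10, -0.066 for Rpl22, -0.045 for Rpl22l1, -0.053 for Rpl35a, -0.0405 for Rpl36a, -0.065 for Rpl4, -0.00068 for Rpl41, -0.062 for Rpl5, -0.059 for Rplp0, -0.088 for Rps10, -0.062 for Rps3 and -0.064 for Rps4x. For Rpl10 and Rps10 it changed to -0.014 and -0.015 with library size only, -0.0029 and -0.0047 with scaling without the ribosomal protein genes, and -0.0059 and -0.0073 with upper-quartile factors. Leaving out 1 library at a time, or Sham replicate 2 and OVX replicate 3 together, gave -0.033 to 0.047 for Rpl10, -0.0045 to 0.26 for Rpl13a, -0.015 to 0.077 for Rpl22, -0.013 to 0.10 for Rpl35a, -0.0035 to 0.23 for Rpl41, -0.0083 to 0.059 for Rpl4, -0.032 to 0.083 for Rpl5, -0.019 to 0.11 for Rplp0, -0.059 to 0.11 for Rps10, -0.055 to 0.16 for Rps3, -0.26 to 0.60 for Rps4l, -0.045 to 0.091 for Rps4x, -0.064 to 0.027 for Rps6 and -0.053 to 0.030 for Rpsa.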
